A study of Mus musculus with 2 samples.

Results

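Glycogen is the branched glucose polymer in which animal cells store sugar, and 9 genes of its synthesis and breakdown were read on arrays of costal chondrocytes (CC) and of cells from the superficial zone (SFZ) of articular cartilage. These genes were *Gyg*, *Gys1*, *Gbe1*, *Ppp1r3b*, *Ppp1r3c*, *Pygl*, *Pygb*, *Pygm* and *Phka1*. They were chosen by name as glycogen genes when the signals of both arrays were already known, among them the high SFZ/CC ratio of *Ppp1r3b*, so their values are a description and support no test. All 9 genes, with 14 probe sets annotated to 1 of them alone, were found among 18193 genes and 34945 probe sets that name a single gene.

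SFZ cells came from the surface layer of the joint cartilage of femur and tibia, and CC came from ribs, both from ICR mice at postnatal day 4. Both were grown in DMEM with 10% FBS, the labels name no genetic change and no treatment for either, and the number of animals or cultures behind each RNA was not stated. Total RNA of each cell type, 100 ng, was labelled and hybridised to 1 Affymetrix mouse genome array, so the 2 arrays have no replicate and no p-value is given. The position in the body, limb joint or rib, and the zone of the cartilage differ together between the samples and cannot be told apart.

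In cells, glycogenin (*Gyg*) starts a glycogen particle, glycogen synthase (*Gys1*) lengthens its chains and the branching enzyme (*Gbe1*) adds the branches. Glycogen phosphorylase, encoded by *Pygl*, *Pygb* and *Pygm* in forms named for liver, brain and muscle, releases glucose 1-phosphate from the chain ends. Phosphorylase kinase, of which *Phka1* encodes a regulatory subunit, switches phosphorylase on, and protein phosphatase 1 reverses this and activates the synthase when a targeting subunit such as *Ppp1r3b* or *Ppp1r3c* brings it to glycogen. Growth plate chondrocytes are known to hold glycogen.

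The signals are MAS5 values, linear intensities of a probe set, which is a group of short oligonucleotides against 1 transcript. Leaving controls aside, median signals were 28.13 for SFZ cells and 32.04 for CC. Probe sets of smell and taste receptors, 86 in number, set a background level, their 95th percentile, which was 28.18 in SFZ cells against 26.05 in CC. Probe sets that exceeded it on each array had a median log2 ratio (SFZ over CC) of -0.15, which became 0.03 when the arrays were given equal medians and 0.08 with quantile normalization, so a log2 ratio near these values is a typical one. Between probe sets of the same gene the log2 ratio had a pooled SD of 0.31 (5035 genes), which measures differences between probes and not between animals or cultures.
The call "higher in SFZ cells" needed an SFZ signal over 100 together with an SFZ/CC ratio over 2, the thresholds the study set for its own screen, and calls in CC needed the reverse. A gene was counted where any of its probe sets passed. Over all 18193 genes, 1.37% passed toward SFZ cells and 6.17% toward CC. Among the genes with a signal over 100 on either array these shares were 2.77% and 12.5%. Both samples expressed cartilage genes, since of 13 chondrocyte markers all were above background in SFZ cells and all but *Chad* in CC. *Col2a1*, encoding type II collagen, was at 8251 in SFZ cells against 9074 in CC. The levels were not even, since 4 markers passed toward SFZ cells (*Chad*, *Matn1*, *Snorc* and *Col9a3*) and 0 toward CC. *Matn1* was at 9989 and 2692. The median log2 ratio of the 13 was 0.48, beside -0.18 over all genes above background on at least 1 array. Of 7 joint surface markers, 1 was higher in SFZ cells, *Prg4*, encoding lubricin, at 323 and 73.6. In CC 3 were higher, *Vcam1* at 35.7 and 354, *Tnfaip6* at 57.5 and 213 and *Thbs4* at 108 and 388, and the median log2 ratio of the 6 above background was -0.76. *Gdf5* was at 93.1 and 74.2.

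Of the 9 glycogen genes, 2 were higher in SFZ cells, *Ppp1r3b* and *Gbe1*, 1 was higher in CC, *Ppp1r3c*, and 6 passed in neither direction. The shares of all named genes that passed were 1.37% toward SFZ cells and 6.17% toward CC, and among the 9001 genes with a signal over 100 on either array, which include 8 of the 9, these shares were 2.77% and 12.5%. Of the 14 probe sets 2 passed in SFZ cells and 2 in CC, against 0.947% and 4.33% of all probe sets with 1 gene. The median log2 ratio of the 9 genes, with signals raised to background, was -0.16, beside -0.18 over all 12477 genes above background on at least 1 array. With equal medians these values were 0.02 and 0.01, and with quantile normalization 0.09 and 0.05. The middle of the group was therefore close to the middle of the arrays, and single members lay far from it in both directions.

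**Figure D1:**
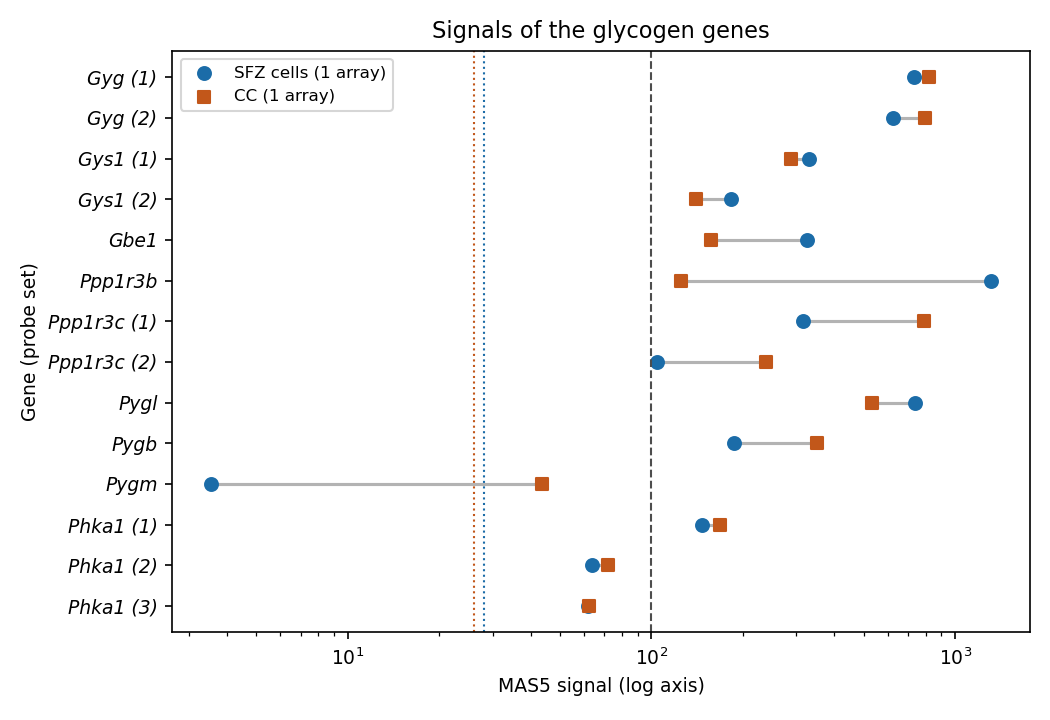
MAS5 signals of the 14 probe sets of the glycogen genes on a log axis, with 1 SFZ array (circles) and 1 CC array (squares); numbers in brackets count the probe sets of a gene from the brightest. Background is drawn dotted (28.18 in SFZ cells, 26.05 in CC) and the minimum signal of 100 dashed, and *Ppp1r3b* spans from 125 to 1309 while the SFZ signal of *Pygm* lies under background.

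The sequences upstream of 3 members are shown, those of a called gene in each direction (*Gbe1* and *Ppp1r3c*) and of the muscle phosphorylase (*Pygm*), since promoter elements commonly lie there. For *Ppp1r3b*, the called gene with the largest ratio, no upstream sequence was available. The sequences shown are the 250 bases before the gene start in RefSeq (GRCm38.p6), printed 5′ to 3′ on the strand of the gene. Capitals mark ACGTG, the core of the sites bound by hypoxia-inducible factor, and CAGCTG, an E-box that myogenic factors can bind, on either strand.
*Gbe1*, chr16:70313699-70313948, plus strand: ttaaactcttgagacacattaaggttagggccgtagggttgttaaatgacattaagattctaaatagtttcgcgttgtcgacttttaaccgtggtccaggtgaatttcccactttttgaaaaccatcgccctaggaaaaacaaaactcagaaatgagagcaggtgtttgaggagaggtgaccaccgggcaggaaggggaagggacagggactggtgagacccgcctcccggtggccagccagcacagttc
*Ppp1r3c*, chr19:36736605-36736854, minus strand: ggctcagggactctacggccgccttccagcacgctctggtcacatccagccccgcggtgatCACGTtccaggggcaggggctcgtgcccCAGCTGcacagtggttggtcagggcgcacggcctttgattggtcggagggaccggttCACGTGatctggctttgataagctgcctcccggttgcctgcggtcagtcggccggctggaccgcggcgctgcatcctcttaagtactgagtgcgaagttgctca
*Pygm*, chr19:6384158-6384407, plus strand: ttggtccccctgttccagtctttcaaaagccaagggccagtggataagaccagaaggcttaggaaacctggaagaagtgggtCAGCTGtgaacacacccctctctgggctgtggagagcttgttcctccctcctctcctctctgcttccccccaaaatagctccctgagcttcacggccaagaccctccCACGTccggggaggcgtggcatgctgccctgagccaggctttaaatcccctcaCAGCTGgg
The *Ppp1r3c* sequence held ACGTG at -189, -104 and -103 from the gene start, the last pair being the strands of 1 palindrome, CACGTG, and it held CAGCTG at -161. The *Pygm* sequence held CAGCTG at -168 and at -8 and ACGTG at -61, and the *Gbe1* sequence held neither. Of 8 members with an upstream sequence, 4 held ACGTG and 4 held CAGCTG, while 16.6% and 13.0% of 32851 upstream sequences of the same length did. CACGTG was in 1 of the 8 and in 6.02% of all. A match describes letters only, and binding was not measured on these arrays.

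*Ppp1r3b*, encoding the glycogen-targeting phosphatase subunit named GL for its first source, liver, had a signal of 1309 in SFZ cells against 125 in CC. Its SFZ/CC ratio was 10.5, a log2 ratio of 3.39, and both signals were above background. Counted from the highest ratio, it stood at place 32 among the 12477 genes above background on at least 1 array. All 500 probe sets nearest to it in mean signal had lower ratios, and their log2 ratios had an SD of 0.79, which holds noise and true differences alike. Only 1 probe set is named for *Ppp1r3b*, so no second probe set of the gene can be set beside it.
*Ppp1r3c*, encoding the subunit called protein targeting to glycogen, went the other way on both of its probe sets. The brighter one had a signal of 315 in SFZ cells against 790 in CC, 2.51-fold higher in CC. On the second the signals were 104.5 and 238, 2.28-fold higher in CC. The mean log2 ratio of the gene was -1.26 ± 0.10 (SD over 2 probe sets). Among the 500 probe sets of like mean signal, 3.8% had a lower ratio than the brighter probe set and 8.2% than the second.
The subunits that target the same phosphatase to glycogen thus stood on opposite sides of the arrays. Set against each other within the arrays, which cancels any linear scaling, the log2 ratio of *Ppp1r3b* exceeded that of *Ppp1r3c* by 4.58 to 4.71 depending on the *Ppp1r3c* probe set, a 26.3-fold difference in ratio on the brighter one.
Of the other targeting subunits, *Ppp1r3d* had signals of 45.3 (SFZ) and 71.7 (CC) and passed in neither direction. *Ppp1r3f* was under background in SFZ cells and at 52.7 in CC, at least 1.87-fold higher there and under the minimum signal. *Ppp1r3g* was at 30.9 in SFZ cells, barely above background, and under it in CC. *Ppp1r3a*, the subunit of striated muscle, and *Ppp1r3e* were under background on both.
The catalytic subunits that all of these bind passed in neither direction. *Ppp1ca* was at 2441 in SFZ cells against 3201 in CC, *Ppp1cb* at 5276 and 5280 and *Ppp1cc* at 3095 and 3771 on their brightest probe sets, and the widest ratio among all their probe sets was 1.64, on a dimmer one of *Ppp1cb*.

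**Figure D2:**
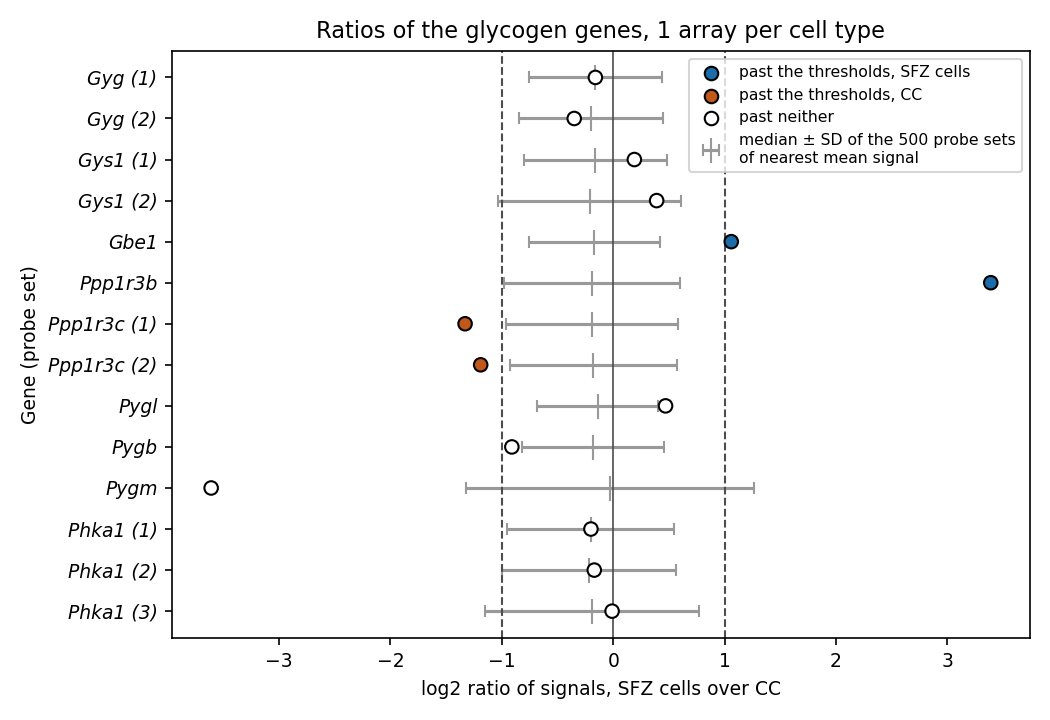
Each glycogen probe set by its log2 ratio, SFZ cells over CC, 1 array per cell type, with filled points past the thresholds. Grey bars give the median and SD over the 500 probe sets closest in mean signal and dashed lines a ratio of 2 in either direction; *Ppp1r3b* lies at 3.39, *Gbe1* at 1.06 and the probe sets of *Ppp1r3c* at -1.33 and -1.19, and the value of *Pygm* rests on an SFZ signal under background.

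Among the enzymes that build glycogen, the branching enzyme alone passed. *Gbe1* had a signal of 326 in SFZ cells against 157 in CC, which gave a ratio of 2.08, just past the threshold, and 98.8% of the 500 probe sets nearest in mean signal had a lower ratio. With 64 added to both signals its log2 ratio fell from 1.06 to 0.82 and it no longer passed.
*Gys1*, the synthase of most tissues outside the liver, was at 329 in SFZ cells against 289 in CC on its brighter probe set. The other probe set gave 183 and 140, and the mean log2 ratio was 0.29 ± 0.14 (SD over 2 probe sets). Neither probe set came near a ratio of 2. *Gyg*, the primer of new particles, was at 732 and 820 on one probe set and at 624 and 796 on the other, with a mean log2 ratio of -0.26 ± 0.13 (SD over 2 probe sets). The ratio of *Gyg* was thus close to the median of the arrays, and its sign on the brighter probe set turned after either scaling.
Within the arrays the log2 ratio of *Gbe1* exceeded that of *Gys1* by 0.67 to 0.87 over the probe sets, and that of *Gyg* by 1.22 to 1.41. The branching enzyme was therefore placed further toward SFZ cells than the synthase or the primer, and linear scaling does not alter these gaps. The smallest of these gaps is 0.67. The pooled SD between probe sets of 1 gene, 0.31, applies to a single log2 ratio and not to such a gap. It does not measure differences between cultures, and *Gbe1* has 1 probe set.
The genes that supply the precursor passed in neither direction. *Ugp2*, which makes UDP-glucose, had 5 probe sets with log2 ratios from -0.01 to 0.10, *Pgm1* was at 898 and 954 on its brighter probe set and *Pgm2*, with a log2 ratio of -0.45, at 128 and 175. *Gys2*, the liver synthase, was under background on both arrays.

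The phosphorylases of the forms named for liver and brain differed in direction, though neither passed. *Pygl* had a signal of 737 in SFZ cells against 530 in CC. Its ratio of 1.39 was the nearest under the threshold on the SFZ side, and *Gbe1* was the nearest above it. *Pygb* was at 187 in SFZ cells against 351 in CC, 1.88-fold higher in CC and the nearest under the threshold on that side, where the second probe set of *Ppp1r3c* was the nearest above it. Among probe sets of like mean signal, 91.0% had a lower ratio than *Pygl* and 9.2% a lower ratio than *Pygb*. Their log2 ratios lay 1.39 apart, so the ratio of *Pygl* to *Pygb* signal was 2.61 times as large on the SFZ array as on the CC array. Each has 1 probe set.
*Pygm*, the phosphorylase of skeletal muscle, was at 3.56 in SFZ cells, under background, and at 43.6 in CC, which is 1.67 times background and under the minimum signal. It was at least 1.55-fold higher in CC. As deposited its log2 ratio was -3.61, but with both signals raised to background it was -0.63, so the size of the difference is not measured.
Markers of skeletal muscle stood apart on the CC array. All 16 muscle genes listed were higher in CC, and their summed signal over 1 probe set each was 327 in SFZ cells against 39610 in CC. *Myog*, a regulator of muscle differentiation, was under background in SFZ cells and at 2721 in CC, as were 10 others of the 16 on the SFZ side. In bulk RNA a different share of muscle cells and a different amount of RNA per cell cannot be told apart. Their part in the *Pygm* signal was not tested.
Other glycogen genes typical of muscle were under background or passed in neither direction. *Phkg1*, the catalytic phosphorylase kinase subunit of muscle, and *Ppp1r3a* were under background on both arrays, so a difference in them could not be measured. *Phka1*, the regulatory subunit of the muscle form, was at 147 in SFZ cells against 168 in CC on its brightest probe set. The other probe sets gave 63.9 and 72.0, and 62.1 and 62.4, and the mean log2 ratio was -0.13 ± 0.10 (SD over 3 probe sets). All *Phka1* probe sets were within the typical range of the arrays, and the sign on the brightest turned after quantile normalization.
The remaining subunits of phosphorylase kinase also passed in neither direction. *Phka2*, the liver form of the regulatory subunit, was at 103 and 195 on its only probe set above background, *Phkb* at 339 and 351, and *Phkg2*, the catalytic subunit found in liver, at 209 in SFZ cells against 134 in CC.

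Of 22 other genes of glycogen metabolism analysed here, 18 were above background on at least 1 array, and 1 passed toward SFZ cells and 0 toward CC. The shares of all named genes were 1.37% and 6.17%, and of genes with a signal over 100 on either array 2.77% and 12.5%. The median log2 ratio of the 18 was -0.11, ranging from -0.91 to 1.21, beside -0.18 over all genes above background on at least 1 array. The gene that passed was *Stbd1*, encoding a starch-binding protein that anchors glycogen to membranes, with signals of 1192 (SFZ) and 515 (CC) and a ratio of 2.31. *Gaa*, the lysosomal glucosidase that digests glycogen, had signals of 1261 and 957 on its brighter probe set, and the log2 ratio of *Stbd1* exceeded its ratios by 0.81 to 0.87. The synthase kinase gene *Gsk3a* was at 1341 and 1205, and the 6 probe sets of *Gsk3b* had log2 ratios from -0.41 to 0.78 and gave no call. *Epm2a* and *Nhlrc1*, the genes of laforin and malin, stayed under the minimum signal on both arrays, at 30.3 and 33.3 and at 38.2 and 66.9.

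**Figure D3:**
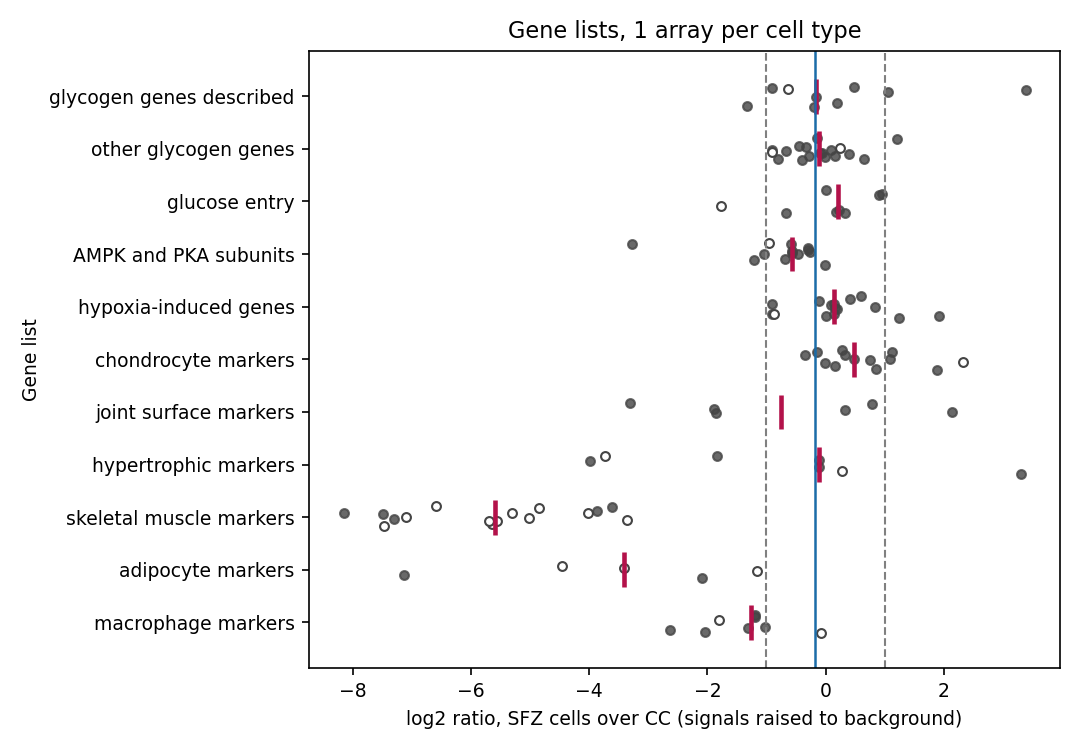
Gene lists by log2 ratio, SFZ cells over CC, 1 array per cell type, with signals raised to background; each point is the brightest probe set of a gene, open points are bounds because 1 signal was under background, and red bars are medians. The blue line is the median of all genes, -0.18, and the dashed lines a ratio of 2; the median was -0.16 for the glycogen genes described and -5.60 for the muscle markers.

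Glucose reaches glycogen through glucose carriers and hexokinases. These were listed together with *G6pc*, *G6pc3* and *Slc37a4*, genes of glucose release, and none of the 9 listed genes on the array passed. The median log2 ratio of the 8 above background was 0.21, and the carriers went both ways. *Slc2a1*, the carrier GLUT1, was at 4531 in SFZ cells against 2424 in CC on its brightest probe set, and its 3 probe sets had ratios from 1.81 to 1.89. *Hk2* was at 1670 and 865.5, a ratio of 1.93. *Hk1* was at 613 and 486 on its brighter probe set, a ratio of 1.26. Its dimmer probe set gave 175 and 102, a ratio of 1.72, and a gene counts by any of its probe sets. Both *Slc2a1* and *Hk2* passed after either scaling, and *Hk1* after quantile normalization, so these calls depend on the level of the arrays. *Slc2a3*, the carrier GLUT3, was at 57.5 and 91.5 on its brightest probe set, a log2 ratio of -0.67, and another of its probe sets above background gave -0.72. *Slc2a4*, the insulin-regulated carrier GLUT4 of muscle and fat, was under background in SFZ cells and at 95.6 in CC, at least 3.39-fold higher there and just under the minimum signal.
Adipocyte markers also differed, since 4 of 6 on the array passed in CC, none in SFZ cells, and their summed signal was 1024 in SFZ cells against 11040 in CC. *Adipoq* was under background in SFZ cells and at 623 in CC. Macrophage markers summed to 510 and 2193, with 4 of 8 higher in CC, or 2 (*Cd14* and *Lyz2*) with quantile normalization or with 64 added. *Ppp1r3c*, *Pygb* and *Slc2a4* moved in the same direction as these lists, and the part of such cells in their signals was not tested.

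*Gys1*, *Gbe1* and *Ppp1r3c* are known to respond to low oxygen, and on these arrays their log2 ratios were 0.19, 1.06 and -1.33. Of 15 hypoxia-induced genes, *Car9* and *Ndrg1* passed toward SFZ cells, 1 passed toward CC and the median log2 ratio was 0.14. Among all genes with a signal over 100 on either array, 2.77% passed toward SFZ cells and 12.5% toward CC. Genes above background on at least 1 array had a median of -0.18. Equal medians gave 0.33 for the 15 beside 0.01 for those genes, and quantile normalization 0.33 beside 0.05. *Bhlhe40* also passed toward SFZ cells after either scaling. *Car9*, a carbonic anhydrase, was at 419 and 110 and *Ndrg1* at 2490 and 1047 on its brightest probe set, both higher in SFZ cells. *Adm*, encoding adrenomedullin, was higher in CC on 1 of its probe sets, at 176 and 458, and at 210 and 395 on the other, which did not pass. The part of low oxygen in the values of these genes and of the glycogen genes was not tested.

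By distance of the log2 signals on both arrays, the gene most like *Ppp1r3b* was *Col10a1*, the type X collagen gene of hypertrophic chondrocytes, with signals of 1254 in SFZ cells against 126 in CC and a distance of 0.06. The next were *Anxa8* at 878 and 195 and *Isg20* at 1081 and 234, at distances of 0.86 and 0.95. Likeness over 2 arrays rests on 2 values a gene. Other hypertrophic markers did not run with *Col10a1*. Of 7 on the array, 3 were higher in CC, among them *Mmp13*, a collagenase, at 239 and 3784, and *Ibsp*, a bone matrix protein gene, was under background in SFZ cells and at 375.5 in CC. The genes nearest to *Pygm* as deposited were *Il13ra2*, *Klb* and *A4galt*, at distances of 0.08 to 0.14. All have SFZ signals under background, and once signals were raised to background 118 genes lay within 0.1 of *Pygm*, so no gene stands out as alike.

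**Figure D4:**
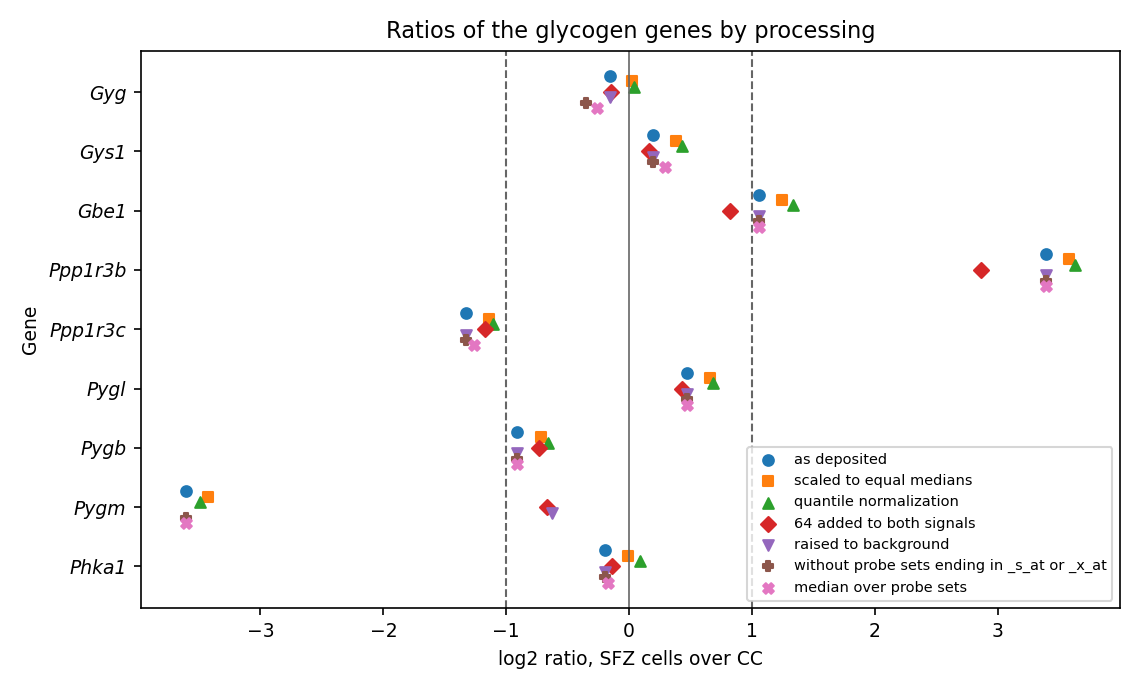
Log2 ratios of SFZ cells over CC of the 9 glycogen genes under 7 ways of processing the same 2 arrays, with the probe set of highest mean signal unless the median over probe sets is marked. Dashed lines mark a ratio of 2; *Ppp1r3b* stays between 2.86 and 3.63 and *Ppp1r3c* between -1.33 and -1.11, while *Pygm* runs from -3.61 to -0.63.

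Across these ways of processing, *Ppp1r3b* kept a log2 ratio of at least 2.86 and *Ppp1r3c* one of -1.11 or lower, and *Gbe1* ran from 0.82 to 1.33. *Pygl* ran from 0.43 to 0.68 and *Pygb* from -0.91 to -0.66, each with 1 sign throughout. *Gys1* ran from 0.16 to 0.43.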

How the data were processed

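Affymetrix mouse genome arrays, 1 for SFZ cells and 1 for CC, were used to measure RNA. Linear intensities per probe set, MAS5 signals, were deposited by the authors. MAS5 is named in the submitters' processing notes, and its version and scaling target are not given in sources used here. Signals were used as deposited, ratios were taken without any added constant, and log2 ratios were computed from them. The number of arrays limits the precision, and no test was run.
The table held 45101 probe sets, 64 of them controls. In the platform annotation 34945 probe sets other than controls had 1 gene symbol, and only these were used, while 932 had several symbols and 9211 had none. The symbols of all 9 members matched RefSeq (GRCm38.p6) through Entrez identifiers. The array names no genome build, so coordinates are given for the RefSeq upstream sequences only. In lists and medians each gene was represented by its brightest probe set (mean log2 signal), and a gene that exceeded background on neither array was dropped. A ratio against a signal under background is given as a lower bound.
The members, the 11 gene lists and the rules for naming genes were chosen with earlier results of these arrays known. All members, the genes of the other glycogen list that passed and the 3 genes nearest to *Ppp1r3b* and *Pygm* were named by rule. A rule to name up to 4 passing genes of each further list, by the largest ratio, was followed only in part. The other genes were named after their values were seen. Counting and scaling were tested on simulated data. Alternatives were equal medians, quantile normalization, 64 added to both signals, signals raised to background, other thresholds, omission of probe sets of lower specificity (ending in _s_at or _x_at), and the median over the probe sets of a gene. All per-sample columns were used (0 left out). Python 3.11.15, numpy 2.4.6, pandas 2.3.3 and matplotlib 3.10.9 were used.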

Additional observations from a re-analysis of the deposited data

How the results depend on the processing

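With 1 array per cell type no library could be left out, and a single array sets every value. No paired analysis was possible because each group has 1 sample. Scaling to equal medians, quantile normalization, raising signals to background, dropping probe sets ending in _s_at or _x_at, the median over probe sets and minimum signals of 50 and 200 each left *Ppp1r3b* and *Gbe1* higher in SFZ cells and *Ppp1r3c* higher in CC. With 64 added to both signals the calls toward SFZ cells were 1 member gene and 1 probe set and those toward CC included 1 probe set, and quantile normalization left 1 probe set in CC. At a ratio over 3, 1 member gene and 1 probe set passed toward SFZ cells and 0 of either toward CC, and *Stbd1* dropped out, which left 0 other glycogen genes. At a ratio over 1.5, *Pygb* joined to make 2 member genes in CC, and other glycogen genes numbered 3 toward SFZ cells (*Phkg2*, *Ppp1cb*, *Stbd1*) and 1 toward CC (*Phka2*). At a minimum signal of 50, 1 other glycogen gene, *Ppp1r3f*, was higher in CC. Over all named genes 249 in SFZ cells became 404 with equal medians, 463 with quantile normalization, 150 with 64 added, 647 at a ratio over 1.5 and 93 at a ratio over 3. The 1123 in CC became 847 with equal medians, 762 with quantile normalization, 717 with 64 added, 2241 at 1.5 and 587 at 3. A looser or stricter threshold moves such counts by its construction. For the other settings the cause was not tested. Low signals limit *Pygm*, whose log2 ratio was -3.61 as deposited, -0.67 with 64 added and -0.63 when raised to background.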

Other observations

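Kinases that act upstream of the glycogen enzymes were lower in SFZ cells in some of their subunits. Of 13 subunit genes of AMP-activated kinase and protein kinase A, 3 passed toward CC and 0 toward SFZ cells. The shares of all named genes were 6.17% and 1.37%, and of genes with a signal over 100 on either array 12.5% and 2.77%. The median log2 ratio of the 13 was -0.57, or -0.39 with equal medians and -0.33 with quantile normalization. Over all genes above background on at least 1 array these medians were -0.18, 0.01 and 0.05. *Prkar2b*, a regulatory subunit of protein kinase A abundant in fat and brain, had 3 probe sets, all higher in CC, and the brightest gave 43.6 (SFZ) and 420 (CC). *Prkaca*, a catalytic subunit, was at 490.5 and 1138. *Prkag2*, a regulatory subunit of AMP-activated kinase, was at 63.7 and 131 and did not pass after either scaling. *Prkag3*, the form of skeletal muscle, was under background in SFZ cells and at 54.7 in CC, at least 1.94-fold higher there and under the minimum signal. Adipocyte and muscle markers were higher in CC, with summed signals of 11040 and 39610 there, and their part in these values was not tested.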
